A study of Homo sapiens with 20 samples.

Results

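The FRA1 Cut&Run peaks of 2000 bp or more are the widest regions of the FRA1 occupancy profile in A375 and 1205Lu cells, both human melanoma cell lines. They were chosen by width alone, taken as the end minus the start plus 1, whatever their counts, and 1199 of the 54563 consensus peaks met this limit (2.2%). FRA1, the product of the gene FOSL1, belongs to the FOS proteins, which pair with JUN proteins to bind DNA. Such a pair recognises the 7-base FOS/JUN sequence TGACTCA, which reads TGAGTCA on the other strand. Cut&Run uses an antibody to tether a nuclease that releases the DNA around the bound protein, and a consensus peak joins overlapping regions of released DNA.

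Cut&Run was performed on 3 A375 FRA1 samples, 3 1205Lu FRA1 samples and 1 IgG control per cell line, and RNA was sequenced in 12 samples, 3 each of A375 si-NT, A375 si-FOSL1, 1205Lu si-NT and 1205Lu si-FOSL1. The si-NT samples received non-targeting siRNAs and the si-FOSL1 samples received siRNAs against FRA1, while the Cut&Run samples carry no siRNA in their labels. Counts in peaks were 3354095 to 5316527 in A375 FRA1 samples and 583750 to 897407 in 1205Lu FRA1 samples, against 383994 for A375 IgG and 314569 for 1205Lu IgG. RNA counts were 21621563 to 32518903 per A375 sample and 20573412 to 30788243 per 1205Lu sample. Replicates 2 and 3 of 1205Lu FRA1 agreed within sampling noise, with a chi-square over its degrees of freedom of 1.01 across 8327 peaks, against 1.49 and 1.6 for the other 1205Lu pairs and 1.06 to 1.27 for A375 pairs. They were therefore counted as 1 sample. The labels do not say that replicates came from separate cultures, so p-values measure the spread between these samples, which may be technical.

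The broad peaks had a median width of 2313 bp (quartiles 2126 and 2680 bp), against 706 bp for the narrower peaks. They made up 6.86% of all bases in peaks. Of the 1199, 790 were under 2500 bp, 153 reached 3000 bp and 10 reached 5000 bp. The limit falls in a continuous range of widths, with 35 peaks of 2000 to 2009 bp and 32 of 1990 to 1999 bp. The 3 peaks of exactly 2000 bp lay nearest to SOX13, ANKRD30A and RND3, and had 773, 1085 and 971 counts, 119, 240 and 151 counts, and 91, 143 and 114 counts in the 3 A375 FRA1 samples. The 4 peaks of exactly 1999 bp had A375 FRA1 counts from 36 at PLD1 to 1025 at ANAPC15, so counts on the 2 sides of the limit overlapped. Broad peaks lay on 23 chromosomes, with the highest share of a chromosome's peaks on chromosome 19 (3.52%) and the lowest on chromosome X (1.41%).

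The sequences below show how FOS/JUN sequences, in capitals, were placed inside broad peaks. They are GRCh38 reference sequence, plus strand, 5′ to 3′, and none overlaps an annotated exon. The first set shows 300 bases from 2 of the 5 broad peaks with the most FOS/JUN sequences per kb. Those 5 were taken among broad peaks with at least 100 counts in every A375 FRA1 sample. The set also shows 300 bases from a peak beyond the end of a ribosomal protein gene.
Peak in an RBMS3 intron, chr3:29185861-29186160: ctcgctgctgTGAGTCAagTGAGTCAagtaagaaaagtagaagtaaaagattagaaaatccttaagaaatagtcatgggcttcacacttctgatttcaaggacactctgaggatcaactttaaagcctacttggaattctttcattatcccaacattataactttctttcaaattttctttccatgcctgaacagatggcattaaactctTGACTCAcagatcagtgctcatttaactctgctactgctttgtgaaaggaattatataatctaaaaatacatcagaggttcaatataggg
Intergenic peak nearest to BHLHE40, chr3:5021822-5022121: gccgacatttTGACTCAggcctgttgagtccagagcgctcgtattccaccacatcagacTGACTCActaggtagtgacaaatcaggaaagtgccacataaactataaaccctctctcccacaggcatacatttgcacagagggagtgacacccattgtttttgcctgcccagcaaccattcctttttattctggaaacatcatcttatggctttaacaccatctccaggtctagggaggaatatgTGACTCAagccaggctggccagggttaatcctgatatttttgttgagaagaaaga
Peak downstream of RPL3, chr22:39308943-39309242: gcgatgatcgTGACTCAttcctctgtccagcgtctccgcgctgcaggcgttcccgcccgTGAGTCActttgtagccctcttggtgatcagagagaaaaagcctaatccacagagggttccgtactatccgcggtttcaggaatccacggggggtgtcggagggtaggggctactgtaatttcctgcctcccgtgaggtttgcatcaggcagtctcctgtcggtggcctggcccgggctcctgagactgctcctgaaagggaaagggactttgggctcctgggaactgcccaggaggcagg
The RBMS3 and BHLHE40 windows each held 3 FOS/JUN sequences, and the RPL3 window held 2. The second set shows 47 bases around single FOS/JUN sequences at 3 promoter peaks, FOSL1 itself, FSCN1, which encodes the actin-bundling protein fascin, and BACH1, which encodes a basic leucine zipper factor.
FOSL1 intron, chr11:65899366-65899412: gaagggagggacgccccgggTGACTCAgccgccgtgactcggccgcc
FSCN1, before the start, chr7:5592105-5592151: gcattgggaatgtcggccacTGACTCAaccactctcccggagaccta
BACH1 intron, left edge of the peak, chr21:29298854-29298900: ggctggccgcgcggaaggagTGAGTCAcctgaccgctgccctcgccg
BACH1 intron, right side of the peak, chr21:29300298-29300344: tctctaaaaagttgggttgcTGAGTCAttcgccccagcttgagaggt

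FOS/JUN sequences were common in broad peaks but lay away from their centres. Of the 1199 broad peaks, 1017 (84.8%) held at least 1 and 675 (56.3%) held 2 or more, with a median of 2 per peak. Of the narrower peaks, 57.1% held at least 1 and 14.9% held 2 or more, so a longer peak held more of them. Per length, broad peaks had 0.744 FOS/JUN sequences per kb, against 0.182 per kb in same-length flanks placed 2 kb outside each edge. The narrower peaks had 0.987 per kb and 0.180 per kb in their flanks. Within 100 bp of the centre, 9.17% of broad peaks had a FOS/JUN sequence (95% Wilson interval 7.67% to 10.9%), against 29.1% of narrower peaks (28.7% to 29.5%) and 3.34% of flanking windows (2.69% to 4.14%). The low share at the centre was not particular to peaks over the limit, since it was 9.73% in peaks from 1500 bp to under 2000 bp and 9.87% in those from 2000 bp to under 2500 bp. The intervals cover counting error only, here and elsewhere.

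The profile about the centre of broad peaks had a hump on each side. Density was 0.417 to 0.667 per kb in the 100-bp bins next to the centre and 1.27 and 1.04 per kb in the bins centred 650 bp to the left and right. In narrower peaks the centre bins held 1.62 and 1.68 per kb. Measured from the edge, the highest bin of broad peaks was centred 450 bp inside it, with 1.53 per kb, the same bin as in narrower peaks (1.57 per kb). The narrower value in this bin rests on 21428 of 106728 edges, those of peaks of 1000 bp or more, since shorter peaks do not reach it. Where a broad peak held 2 or more FOS/JUN sequences, the first and the last were a median of 1272 bp apart (quartiles 783 and 1661 bp).

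**Figure D1:**
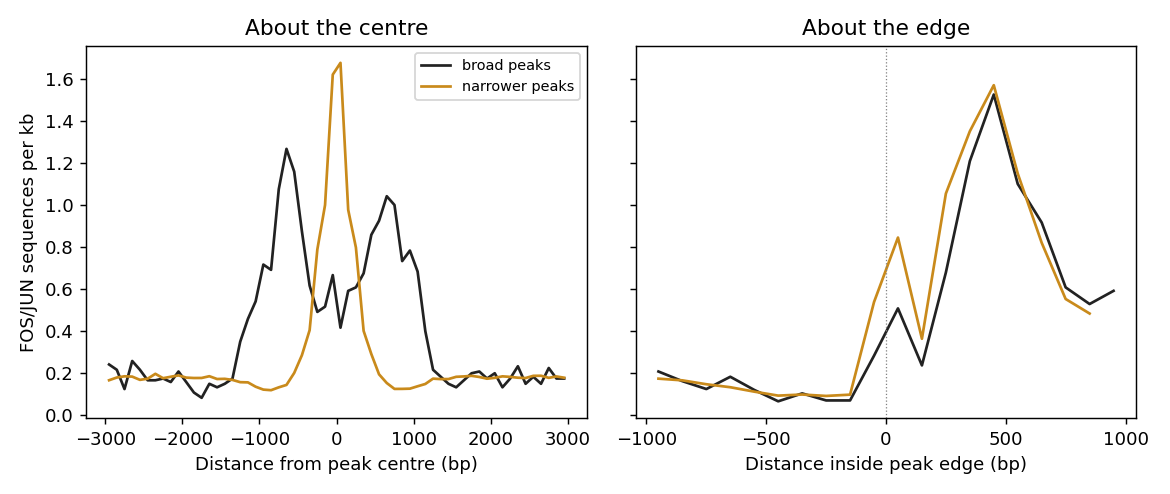
FOS/JUN sequences per kb (vertical axis) in 100-bp bins, by distance from the peak centre (left, bp) and from the peak edge (right, bp, positive inside), in broad peaks (black) and narrower peaks (ochre). Broad peaks have a hump near 650 bp on each side of the centre, and both classes are highest in the bin centred 450 bp inside the edge, where the narrower value comes from 21428 of 106728 edges.

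Other sequences were searched on both strands in the same way. TEAD sequences (GGAATGT) occurred at 0.227 per kb in broad peaks and 0.144 per kb in flanks, ETS sequences (CCGGAAG) at 0.0805 and 0.0405 per kb, and RUNX sequences (TGTGGTT) at 0.214 and 0.190 per kb. GC boxes (GGGCGGG) occurred at 0.399 per kb against 0.151 per kb in flanks. The GC boxes were concentrated in broad peaks that held a transcription start, with 1.1 per kb there and 0.129 per kb in the other broad peaks.

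Broad peaks held transcription starts more often than narrower peaks, which are shorter, and more often than their own flanks of the same length. A start of any annotated gene lay in 322 of 1199 broad peaks (26.9%, Wilson interval 24.4% to 29.4%) and in 10.2% of their flanks (9.04% to 11.5%). In narrower peaks the shares were 11.5% and 2.65%. A longer region covers more sequence, so the shares of broad and narrower peaks are not matched for length. The share was 22.2% in peaks from 1500 bp to under 2000 bp and 24.1% in those from 2000 bp to under 2500 bp. A protein-coding start lay in 238 broad peaks (19.8%) and in 5.38% of their flanks. By their centre, 526 of the other broad peaks were intronic, 300 were intergenic and 51 were exonic. Broad peaks with a start had a median CpG observed-to-expected ratio of 0.567, against 0.207 in those without. They also had fewer FOS/JUN sequences, 0.560 per kb against 0.815 per kb.

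**Figure D2:**
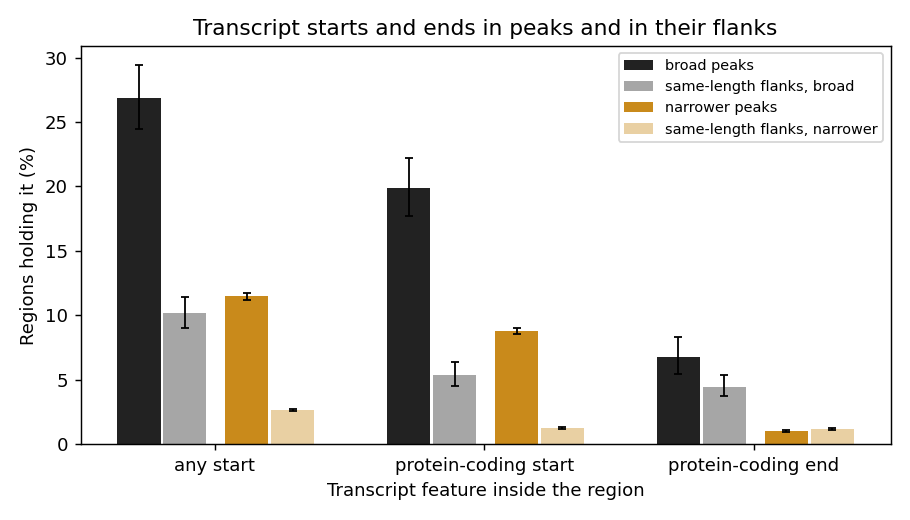
Percent of regions (vertical axis) that hold any transcription start, a protein-coding start or a protein-coding transcript end, for broad peaks (black), narrower peaks (ochre) and their same-length flanks (paler), with 95% Wilson intervals. Starts lie in 26.9% of broad peaks against 10.2% of their flanks, and ends in 6.76% against 4.47%.

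Protein-coding transcript ends lay in 81 broad peaks (6.76%, interval 5.47% to 8.32%) and in 4.47% of their flanks (3.71% to 5.37%), and in 15% of the 153 peaks of 3000 bp or more. In narrower peaks the share was 0.995% and in their flanks 1.19%. This feature was counted after the annotation of the widest peaks had been seen. Replication-dependent and related histone genes, also counted afterwards, had a start in a broad peak for 30 of 73 symbols, against 281 of 20020 protein-coding genes (1.4%). Histone genes are short and lie in clusters, so neighbours can share a peak.

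The 10 widest broad peaks included peaks at or just beyond ACTB, GAPDH, EEF1A1 and RPL3. The widest, of 12529 bp at chr21:8988420-9000948 on the short arm of chromosome 21, had 4802, 6520 and 6369 counts in A375 FRA1 samples and 463 in A375 IgG. It had 309, 489 and 412 counts in 1205Lu FRA1 samples and 116 in 1205Lu IgG, so both IgG libraries also had high counts there. The next, of 10465 bp at chr7:5516175-5526639, spans the end of ACTB, which encodes beta-actin, and the sequence beyond it. It held no FOS/JUN sequence. Its unscaled 1205Lu FRA1 counts of 123, 145 and 135 were all under the 1205Lu IgG count of 147. Its unscaled A375 FRA1 counts of 573, 926 and 775 were above the A375 IgG count of 73. The A375 FRA1 libraries had more counts in peaks than A375 IgG. After scaling, its log2 fold change, A375 over 1205Lu, was -0.22 (edgeR, adjusted p = 0.36).

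The GAPDH peak, 8731 bp at chr12:6532104-6540834, covered the whole of this glycolytic enzyme gene, with 548, 913 and 787 counts in A375 FRA1, 100 in A375 IgG, 220, 331 and 247 in 1205Lu FRA1 and 110 in 1205Lu IgG. All 6 FRA1 samples were above their IgG control in unscaled counts. Each FRA1 library also had more counts in peaks than its IgG control, so this order may not hold after scaling. A peak at the 3′ side of EEF1A1, which encodes a translation elongation factor, spanned 6846 bp and had 627, 1065 and 901 counts in A375 FRA1 but 28, 41 and 42 in 1205Lu FRA1, where IgG had 38. The peak at GADD45A, a growth-arrest and DNA-damage gene, had 622, 1020 and 842 counts in A375 FRA1 and 83, 134 and 136 in 1205Lu FRA1, with 47 and 33 in IgG. The remaining widest peaks lay near RCC1, near the widest peak on chromosome 21, at PLEC, beyond RPL3 and at ZFAS1.

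Counts per kb were higher in broad than in narrower peaks in all 6 FRA1 samples. Since peak width was set by peak calls on the same reads, these levels describe the peaks and are not a test. In A375 FRA1 samples 1 to 3, broad peaks had 116, 187 and 149 counts per kb and narrower peaks 73.6, 116 and 93.3. In 1205Lu FRA1 samples 1 to 3, the values were 15.2, 25.4 and 21.7 in broad peaks and 13.2, 20.1 and 17.6 in narrower peaks. IgG had 9.34 and 8.72 counts per kb in A375 and 6.46 and 7.23 in 1205Lu. In A375 FRA1 replicate 1 the level was 37.3 counts per kb in peaks under 500 bp, 110 from 1000 bp to under 1500 bp and 124 at 3000 bp or more. The level did not step up at the limit. Peaks from 1500 bp to under 2000 bp had 114, 184 and 146 counts per kb in A375 FRA1 samples and 15.9, 26.9 and 22.8 in 1205Lu FRA1 samples. Those from 2000 bp to under 2500 bp had 111, 180 and 142 in A375 and 14.3, 23.7 and 20.3 in 1205Lu, lower in all 6 samples.

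**Figure D3:**
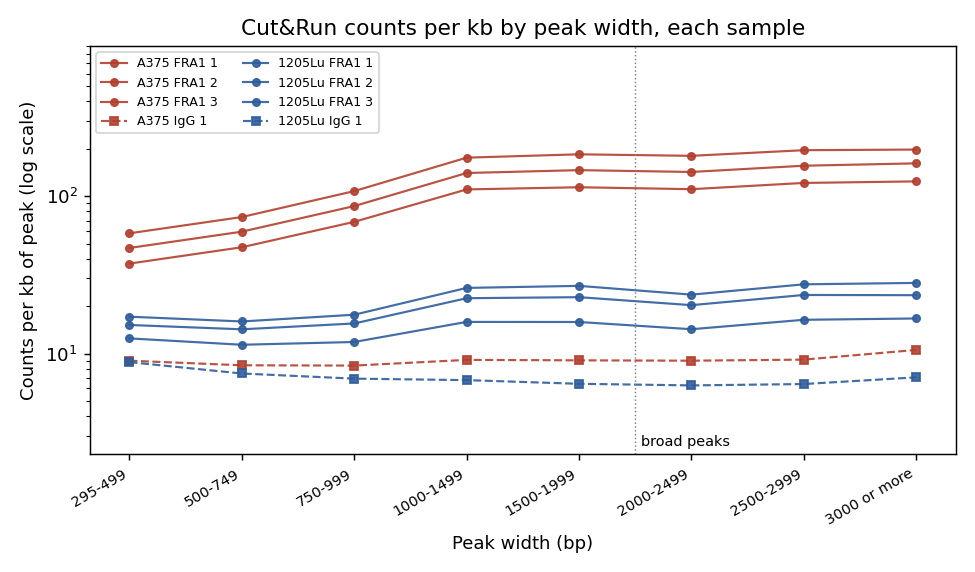
Counts per kb of peak (vertical axis, log scale) by peak width class (horizontal axis, bp), 1 line per Cut&Run sample, FRA1 as solid lines and IgG as dashed lines, A375 in red and 1205Lu in blue. In peaks of 3000 bp or more, A375 FRA1 samples lie between 124 and 198 and 1205Lu FRA1 samples between 16.7 and 28.1.

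Broad peaks took a larger share of the counts in A375 than in 1205Lu FRA1 samples. Widths came from peak calls on the same reads, most of them from A375, so this difference is not independent of how the peaks were chosen. The share was 10.4%, 10.6% and 10.5% in A375 and 7.84%, 8.51% and 8.33% in 1205Lu, against 7.31% and 6.17% in IgG, and the A375 and 1205Lu FRA1 values did not overlap. The difference was 2.37 percentage points (10.5% ± 0.113, SD, n = 3, against 8.13% ± 0.411, n = 2, two-sided exact permutation test p = 0.2). The ratio of counts per kb in broad to narrower peaks was 1.59 ± 0.0192 (n = 3) in A375 and 1.2 ± 0.0661 (n = 2) in 1205Lu (two-sided exact permutation test p = 0.2). With 3 against 2 samples, 0.2 is the smallest p this test can give.

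With unscaled counts, nearly all broad peaks stood above IgG in A375 and few did in 1205Lu, an order that turned with scaling to the same total. A peak was called enriched when no FRA1 sample of a cell line fell below 10 counts or below 4-fold the sum of the IgG count and 1. In A375, 1127 broad peaks (94.0%) met this, beside 57.4 percent of all peaks. In 1205Lu, 176 (14.7%) met it, beside 7.09 percent of all peaks, and in both cell lines 168 (14.0%), beside 4.5 percent. A further 64 (5.34%) met it in neither, beside 40.0% of all peaks. Counts were not scaled to library size for this rule, and the total in peaks was higher in FRA1 samples than in IgG. Scaled to the same total in peaks, 15 broad peaks met it in A375 (1.25%), beside 1.21% of all peaks, 61 in 1205Lu (5.09%), beside 3.67% of all peaks, and 4 in both (0.334%), beside 0.203%. On that scale the A375 share of broad peaks was near that of all peaks. The minimum of 10 counts is reached more easily by a wider peak. With at least 10 counts per kb instead, 1127 met it in A375 and 171 in 1205Lu, beside 58.4% and 7.47% of all peaks. Without 1205Lu FRA1 replicate 1, 292 were enriched in 1205Lu and 282 in both. The shares of all peaks without that sample are not given here. In 220 broad peaks all 3 1205Lu FRA1 counts were at or under the IgG count, against 17040 of 53364 narrower peaks. No broad peak had an A375 FRA1 count at or under IgG, while 3124 of the narrower peaks did. These counts were also unscaled, and the median A375 IgG count was 21 in broad and 5 in narrower peaks.

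By the same unscaled rule, the 182 broad peaks with no FOS/JUN sequence were enriched over IgG in A375 in 80.8% of cases. The share was 98.2% of the 675 with 2 or more, beside 57.4% of all peaks. In 1205Lu the shares were 8.24% and 17.9%, beside 7.09% of all peaks. A transcription start lay in 44% of those without and in 19.7% of those with 2 or more. The part of the FOS/JUN sequence itself in these shares was not tested.

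Between the cell lines, with counts scaled by TMM, more broad peaks were higher in A375 than in 1205Lu. Here too the width limit and the counts came from the same reads, so an excess toward A375 is not independent of the choice. At an adjusted p under 0.05 from edgeR (quasi-likelihood, Benjamini-Hochberg over 53300 peaks), 638 of 1199 broad peaks (53.2%) were higher in A375, beside 29 percent of all peaks tested. A further 246 (20.5%) were higher in 1205Lu, beside 24.3 percent, and 315 were not called. The median log2 fold change, A375 over 1205Lu, was 0.66 in broad peaks and 0.24 in all peaks. In broad peaks without a start the median was 0.91 and in those with a start 0.16, while in narrower peaks the values were 0.35 and -0.41. The number of broad peaks called each way depended on scaling and on the samples used, with more higher in A375 in each setting. In some single peaks the direction turned with scaling. Without A375 FRA1 replicate 1, 451 were higher in A375 and 149 in 1205Lu, and without 1205Lu FRA1 replicate 1, 570 and 369. With no scaling between libraries, 1152 broad peaks were higher in A375 and 10 in 1205Lu, with medians of 3.39 in broad and 2.92 in all peaks. By the unscaled rule, 112 of the 246 called higher in 1205Lu (45.5%) were enriched over IgG in 1205Lu and 221 (89.8%) in A375. Of the 638 called higher in A375, 620 (97.2%) were enriched in A375 and 18 (2.82%) in 1205Lu. Over all broad peaks the shares were 94.0% in A375 and 14.7% in 1205Lu. The calls and the rule used the same FRA1 counts, so they are not independent.

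**Figure D4:**
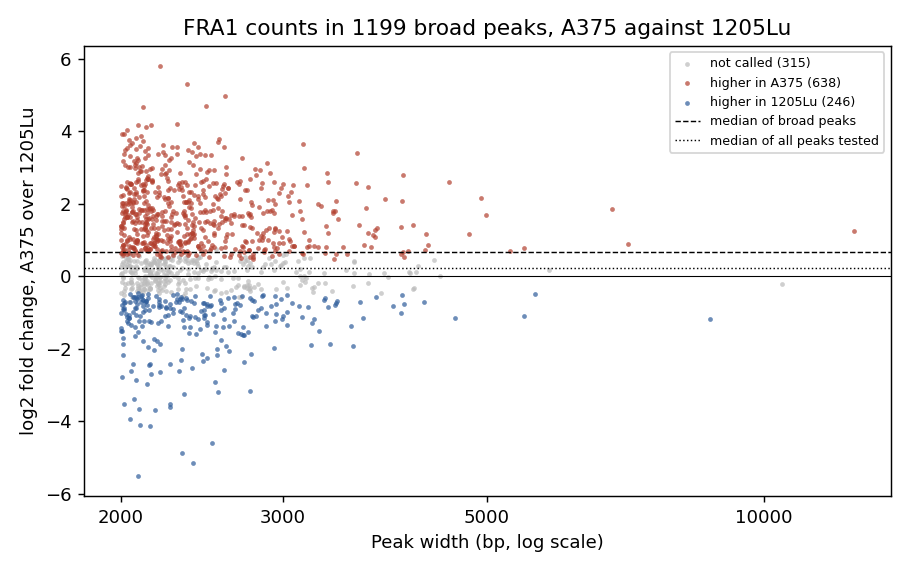
Log2 fold change of FRA1 counts, A375 over 1205Lu (vertical axis), by peak width (horizontal axis, bp, log scale), 1 point per broad peak, with 638 called higher in A375 (red), 246 higher in 1205Lu (blue) and 315 not called (grey). The median of broad peaks (dashed) is 0.66 and that of all peaks tested (dotted) 0.24.

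Among called broad peaks with a mean of at least 100 counts, the 5 largest differences in each direction lay outside transcription starts, except at LINC00511. A 2205-bp intergenic peak at chr1:238652493-238654697, nearest to CHRM3, had 1339, 1843 and 1553 counts in A375 FRA1 and 6, 3 and 4 in 1205Lu FRA1, where IgG had 50 and 9. Its log2 fold change was 5.79 ± 0.36 (SE, adjusted p = 1.5e-12). A 2596-bp intronic peak at chr13:37655959-37658554, nearest to the start of POSTN, had 1324, 2145 and 1829 counts in A375 FRA1 and 5, 8 and 13 in 1205Lu FRA1. In these peaks the A375 samples were high and the 1205Lu samples had at most 13 counts. The other 3 largest positive differences lay nearest to SPCS3, METTL4 and RANBP9, with log2 fold changes of 4.69, 5.30 and 4.20.

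In the other direction, a 2328-bp peak at chr3:124117523-124119850, nearest to the start of KALRN, had 25, 38 and 49 counts in A375 FRA1 and 119, 235 and 182 in 1205Lu FRA1, with 9 and 16 in IgG. Its log2 fold change was -4.88 ± 0.23 (adjusted p = 1.6e-14). All 1205Lu counts exceeded all A375 counts, although the 1205Lu libraries had fewer counts in peaks. The peak at the start of the non-coding RNA gene LINC00511 had 75, 75 and 77 counts in A375 FRA1 and 146, 296 and 216 in 1205Lu FRA1. The remaining 3, nearest to BCAS1, KCNC4 and ARHGAP5, had log2 fold changes of -3.53, -3.66 and -3.93. All 5 were enriched over IgG in 1205Lu.

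At the promoter peaks shown above, FOSL1 had 192, 314 and 273 counts in A375 FRA1 and 31 in IgG, and 35, 58 and 62 in 1205Lu FRA1 and 19 in IgG. Its log2 fold change of -0.34 did not pass the test. In unscaled counts, FSCN1 had 236, 365 and 292 in A375 FRA1 and 27 in IgG. It had 47, 30 and 30 in 1205Lu FRA1, all under the IgG count of 49. Its log2 fold change of 0.29 did not pass the test either. Each FRA1 library had more counts in peaks than its IgG control. BACH1 had 154, 263 and 212 counts in A375 FRA1 and 40, 88 and 73 in 1205Lu FRA1, with 15 and 10 in IgG, and was called higher in 1205Lu after scaling (log2 fold change -1.01 ± 0.20, adjusted p = 0.00017).

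Protein-coding genes that start in a broad peak were highly expressed. The 276 of 281 such genes with a level had median RNA levels of 12.2 to 12.5 CPM (TMM-scaled counts relative to library size) per kb of exon in A375 si-NT samples and 8.68 to 9.27 in 1205Lu si-NT samples. Genes that start only in a narrower peak had 5.84 to 5.86 and 4.91 to 5.05, and genes that start in no peak 0.266 to 0.277 and 0.231 to 0.240. The 101 genes with a level that end in a broad peak had 39.7 to 43.1 in A375 and 26.6 to 29.1 in 1205Lu. Of the 104 genes that end in a broad peak, 28 were histone genes and 8 were RPL or RPS ribosomal protein genes, by symbol. Of the 281 that start in one, 30 were histone genes. The part of gene class and length in these levels was not tested.

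Few of these genes changed by more than 2-fold with si-FOSL1. Fold changes are si-NT over si-FOSL1, so a positive value means a lower level after silencing, and a call needed an adjusted p under 0.05 by edgeR and an absolute log2 fold change over 1. In A375, 7 of 271 tested were higher with si-NT (2.58%), beside 2.51 percent of all protein-coding genes, and 4 were lower (1.5%), beside 2.78 percent. In 1205Lu, 5 of 264 were higher (1.89%), beside 1.86 percent, and 4 were lower (1.52%), beside 1.11 percent. These shares were near the background. By the adjusted p alone, 126 (46.5%) were higher with si-NT in A375, beside 27.8 percent, and 77 (28.4%) were lower, beside 29.9 percent. In 1205Lu the shares were 33.3%, beside 23 percent, and 29.5%, beside 24 percent. Highly expressed genes have more counts, and the part of expression level in these shares was not tested.

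FOSL1, the silenced gene, had 426 ± 9.57 CPM with si-NT and 26.9 ± 0.160 with si-FOSL1 in A375 (SD, n = 3), and 460 ± 8.87 and 67.0 ± 3.23 in 1205Lu. FSCN1 had 115 ± 0.822 and 47.6 ± 0.957 in A375 and 452 ± 8.38 and 117 ± 3.95 in 1205Lu, and was called in both cell lines, with log2 fold changes of 1.29 and 2.01. PLEC, which encodes the cytoskeletal linker plectin and has starts in 3 broad peaks, had 2268 ± 38.0 and 975 ± 12.8 in A375 and 2430 ± 44.5 and 2215 ± 12.5 in 1205Lu. MARCHF4, a ubiquitin ligase gene, had 95.4 ± 0.562 and 31.1 ± 3.56 in A375, and its peak was enriched over IgG in both cell lines. CD68, a lysosomal membrane protein gene, had 16.4 ± 0.427 and 7.37 ± 0.878 in 1205Lu.

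Among genes that were higher after silencing, CDKN1A, which encodes the cyclin-dependent kinase inhibitor p21, had 189 ± 1.42 CPM with si-NT and 410 ± 4.29 with si-FOSL1 in A375. THBS1, the matrix protein thrombospondin, had 704 ± 13.4 and 1499.6 ± 17.1 in 1205Lu, and NNMT, a methyltransferase of nicotinamide, had 14.7 ± 1.57 and 41.5 ± 1.04. In each of these genes the 3 si-NT and the 3 si-FOSL1 samples did not overlap, which was a condition for choosing changed genes.

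**Figure D5:**
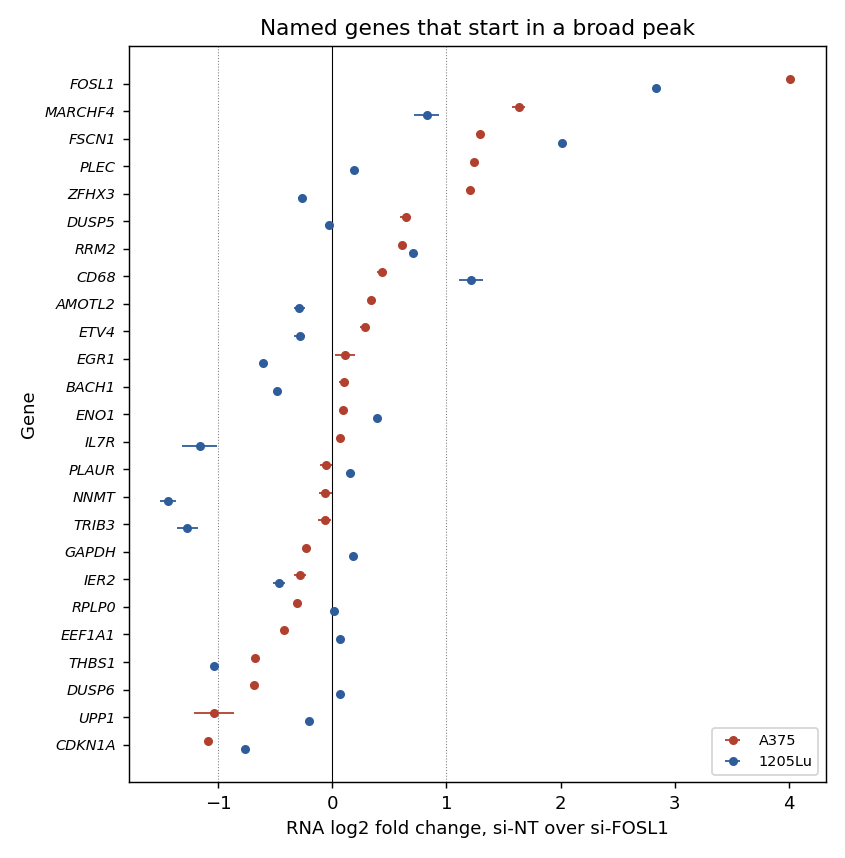
RNA log2 fold change, si-NT over si-FOSL1 (horizontal axis, with SE bars), of 25 named genes that start in a broad peak (vertical axis), in A375 (red) and 1205Lu (blue), with dotted lines at -1 and 1. FOSL1 is highest in both cell lines, at 4.01 and 2.84.

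Of the gene lists, 5 of 20 immediate-early and ERK feedback genes started in a broad peak (EGR1, IER2, DUSP5, DUSP6 and ETV4), 4 of 16 housekeeping genes (GAPDH, EEF1A1, RPLP0 and ENO1), 2 of 12 FOS and JUN family genes and partners (FOSL1 and BACH1), 2 of 18 matrix and invasion genes (THBS1 and PLAUR) and 2 of 18 cell cycle genes (RRM2 and CDKN1A). The count was 1 of 12 for YAP/TEAD targets (AMOTL2) and 1 of 20 for actin and adhesion genes (FSCN1), and 0 of 14 for both melanocyte lineage and dedifferentiated state genes. Over all 14663 protein-coding genes tested in either cell line the share was 1.86%.

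None of the 5 immediate-early and ERK feedback genes that start in a broad peak passed both the adjusted p and the fold limit. The log2 fold changes in A375 and 1205Lu were -0.69 and 0.07 for DUSP6, an ERK phosphatase gene, and 0.64 and -0.03 for DUSP5, another phosphatase gene. EGR1, an immediate-early transcription factor gene, had 0.11 in A375 and -0.61 in 1205Lu. IER2, an immediate-early gene, had -0.28 and -0.47, and ETV4, an ETS factor gene, had 0.28 and -0.29. By the adjusted p alone, DUSP6, DUSP5, IER2 and ETV4 passed in A375, with values of both signs, and EGR1, IER2 and ETV4 in 1205Lu, all negative. RRM2, a subunit of ribonucleotide reductase, had 0.61 and 0.70, and CDKN1A -1.09 and -0.76. CDKN1A in A375 passed both limits. The peaks of DUSP6, IER2, ETV4 and RRM2 missed the unscaled rule for enrichment over IgG in A375, which must hold in every FRA1 sample. Their A375 FRA1 counts were all above the A375 IgG count. RRM2 had 218, 354 and 347 against 55 in IgG, and IER2 had 161, 271 and 216 against 47. ETV4 had 76, 134 and 100 against 19, and DUSP6 had 92, 153 and 125 against 31.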

How the data were processed

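RNA-seq was performed on 12 samples and Cut&Run on 8. For RNA-seq, the authors removed adapters with cutadapt 1.8.1, aligned reads to GRCh38 with STAR 2.7.7a and deposited RSEM 1.3.0 expected counts per gene, as unnormalized whole numbers. For the Cut&Run libraries, the authors aligned reads to GRCh38 with Bowtie2 2.4.1, called peaks with MACS2 2.1.1.20160309 and deposited raw read counts per consensus peak. The use of single or pooled samples for peak calling is not given in the sources used here. The submitters' notes also list ChIPseeker 1.32.1 and DESeq2 1.36.0.

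Broad peaks were taken from the peak names, at 2000 bp or more. Starts and ends came from basic transcripts of Gencode release 44, exons from all its transcripts, and sequences from GRCh38. Flanks had the length of their peak and began 2 kb outside each edge. Differences were tested with edgeR 4.0.16 (filterByExpr, TMM, glmQLFit and glmQLFTest) in R 4.3.3 with Benjamini-Hochberg adjustment over all peaks or genes, and checked on simulated data. RNA levels are TMM-scaled CPM. DESeq2 1.42.0, other scalings, filters, limits and leaving out each sample were alternatives. Permutation tests used scipy 1.17.1. Named peaks were the 10 widest, those at starts of genes the study names or of FOS and JUN family genes, the 5 largest differences each way among those called with a mean of at least 100 counts and no overlap, and the 5 with the most FOS/JUN sequences per kb. The last 5 were taken among broad peaks with at least 100 counts in every A375 FRA1 sample. Named genes were list members and up to 6 called in each direction per cell line. The called ones needed a mean of at least 100 counts and no overlap between groups. The members and lists were chosen with earlier results of these data known. Sequences of other named peaks are not reported here.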

Additional observations from a re-analysis of the deposited data

Results flagged for a closer look

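In 6 of the named genes that start in a broad peak, the RNA response to si-FOSL1 differed between A375 and 1205Lu by more than 1 on the log2 scale, by edgeR's interaction term (A375 minus 1205Lu, adjusted p under 0.05). The difference was 1.49 for ZFHX3 (log2 fold change 1.21 in A375 and -0.27 in 1205Lu), 1.39 for NNMT (-0.06 and -1.44), 1.23 for IL7R (0.06 and -1.16), 1.21 for TRIB3 (-0.07 and -1.27), 1.19 for FOSL1 (4.01 and 2.84) and 1.06 for PLEC (1.25 and 0.19). FOSL1 is the silenced gene, so its difference describes the depth of silencing. IL7R had a mean of 365 CPM in A375 si-NT and 3.24 in 1205Lu si-NT. These genes were chosen for their changes in these data. ZFHX3 and PLEC were named for a change in A375 only, and NNMT, IL7R and TRIB3 for a change in 1205Lu only. That choice favours a difference between the cell lines. The share of all genes past the same limits is not given here, so the 6 have no background beside them.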

How the results depend on the processing

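With the 3000-bp limit, 109 broad peaks differed between the cell lines, 145 were enriched over IgG in A375, 27 in 1205Lu and 27 in both, 2 starting genes changed in A375 and 1 in 1205Lu, 36.6% of peaks held a start, FOS/JUN density was 0.607 per kb and the difference in the share of counts was 0.445 percentage points; it keeps 153 peaks. At 2 times and 8 times IgG, 409 and 44 broad peaks were enriched in 1205Lu (15.6% and 2.06% of all peaks) and 407 and 41 in both (11.3% and 1.15%). Scaled to the same total in peaks, 15 were enriched in A375, 61 in 1205Lu and 4 in both (1.21%, 3.67% and 0.203% of all peaks). Leaving out single samples gave 1127 to 1173 in A375, 176 to 292 in 1205Lu and 168 to 282 in both, the highest values, 292 and 282, without 1205Lu FRA1 replicate 1. The matching shares of all peaks are not given here. Called differences were 600 to 939 (884 with all), 600 without A375 FRA1 replicate 1, and 725 by DESeq2. Changed genes were 9 to 11 in A375 and 9 to 10 in 1205Lu. Without a fold limit 203 and 166 starting genes changed, and 20 in A375 with starts within 3 kb. Within 250 bp of the centre 23.6% of broad peaks had a FOS/JUN sequence, and anywhere 84.8%. A start lay within 3 kb in 39.9%, and a protein-coding start inside in 19.8%. FOS/JUN density was 0.804 per kb without bases near starts. The difference in the ratio of counts per kb was 0.753 by medians, against 0.391.

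Without scaling, these log2 fold changes turned positive: ACTB end 2.52, GAPDH 1.56, second chromosome 21 peak 2.25, PLEC 1.64, FOSL1 2.42, BACH1 1.77 and the peak nearest TTPAL 2.4. GADD45A turned to -0.27 without 1205Lu FRA1 replicate 1 and -0.013 by DESeq2 (0.26 at most without single samples), the SOX13 peak to -0.051 with a minimum of 10 counts, -0.08 and -0.32 without A375 and 1205Lu FRA1 replicate 1 and -0.106 by DESeq2 (0.23 at most), and the BHLHE40 peak to -0.037 without 1205Lu FRA1 replicate 1 (0.53 at most). RPLP0 RNA in 1205Lu turned to -0.0036 by DESeq2. The cause was not tested. Replicate numbers did not pair the samples, and with the replicate block 875 broad peaks differed. Counts in peaks were lower in 1205Lu, where library depth and enrichment cannot be told apart.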
